A study of Mus musculus with 3 samples.

Results

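Transcription factor genes of the neural crest were examined for binding of TFAP2A in melanocytes, namely Pax3, Sox9, Sox5, Sox6, Snai2, Zeb1, Zeb2, Foxd3, Twist1 and Msx1. They are 10 of the 22367 protein-coding genes of the annotation used, and they were chosen by name, with earlier results of these data known, the strong region near Pax3 among them. Chromatin bound by TFAP2A was precipitated with the antibody AP-2alpha (3B5) and sequenced (ChIP-seq) in melan-a cells, an immortalised mouse melanocyte line from normal embryonic skin with the genotype Cdkn2a tm1RDp/tm1RDp. All libraries came from this 1 line, grown without further treatment in medium with 12-O-tetradecanoylphorbol 13-acetate and cholera toxin, so no genotype or treatment was compared. The series held 2 ChIP replicates from independent experiments and an input library, which was not analysed here. Each replicate gave its own list of peaks, 18528 in replicate 1 and 21459 in replicate 2. A replicate 1 peak that overlapped a replicate 2 peak was called a shared region, and 16134 such regions were found. Counted from replicate 2, 16305 peaks overlapped a peak of replicate 1. A region was counted for a gene when its summit, the position of highest signal in replicate 1, lay in the gene body or within 200 kb of it (mouse build mm9, also named NCBIM37). By this rule 60 shared regions fell in the windows of the 10 genes. Read depth was not known, and no expression table was used here, so neither the melanocyte label nor the activity of a gene was checked against expression.

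TFAP2A is a transcription factor that binds GC-rich palindromic sites and is required early in neural crest development. The neural crest is the migratory embryonic cell population that gives rise to melanocytes, peripheral neurons and glia, and much of the facial skeleton. PAX3, FOXD3, SOX9, MSX1, TWIST1 and the zinc finger proteins SNAI2, ZEB1 and ZEB2 act at the border of the neural plate, in specification of the crest or in its departure from the neural tube. PAX3 later activates Mitf in melanoblasts together with SOX10, SOX5 modulates SOX10 at melanocyte promoters, and FOXD3 holds back the melanocyte fate. Following general knowledge of the lineage, with no expression value used and with the binding results known, Pax3, Sox5, Snai2 and Zeb2 were grouped as active in melanocytes and Foxd3, Twist1 and Msx1 as silent. Sox9, Sox6 and Zeb1 were left unassigned.

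The DNA under the summits is given below for the regions on which the results turn: the pair of strong regions beside Pax3, the strongest regions of Zeb2, Foxd3, Sox6 and Sox5, and the region at the promoter of Msx1. Each sequence covers the summit and 50 bases to either side, read on the + strand of NCBIM37. Capitals mark matches to GCCNNNGG on either strand, the short form of the TFAP2 site, with overlapping matches joined.
Pax3 strongest region, chr1:78054713-78054813: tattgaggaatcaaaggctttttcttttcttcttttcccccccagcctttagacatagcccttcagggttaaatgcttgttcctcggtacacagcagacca
Pax3 neighbouring region, chr1:78056809-78056909: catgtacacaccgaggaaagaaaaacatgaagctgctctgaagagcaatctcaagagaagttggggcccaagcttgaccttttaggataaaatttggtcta
Zeb2 upstream region, chr2:45103582-45103682: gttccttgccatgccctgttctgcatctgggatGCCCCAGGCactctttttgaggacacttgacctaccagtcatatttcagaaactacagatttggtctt
Foxd3 upstream region, chr4:99189926-99190026: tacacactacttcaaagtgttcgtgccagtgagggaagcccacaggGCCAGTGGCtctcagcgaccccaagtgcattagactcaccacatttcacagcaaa
Sox6 intronic region, chr7:122812963-122813063: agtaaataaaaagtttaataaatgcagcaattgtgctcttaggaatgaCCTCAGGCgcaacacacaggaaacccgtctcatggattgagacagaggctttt
Sox5 intronic region, chr6:143996932-143997032: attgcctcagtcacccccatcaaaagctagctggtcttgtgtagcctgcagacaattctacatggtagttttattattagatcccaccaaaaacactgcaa
Msx1 promoter region, chr5:38215927-38216027: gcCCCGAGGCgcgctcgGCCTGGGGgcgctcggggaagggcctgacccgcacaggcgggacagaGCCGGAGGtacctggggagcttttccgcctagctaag
The strongest Pax3 sequence and its neighbour held no capitals, and neither did that of Sox5. The Zeb2 and Foxd3 sequences held the full palindrome GCCNNNGGC, the Sox6 sequence held 1 shorter site, and the Msx1 promoter held 3 sites.

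Pax3 (ENSMUSG00000004872.9, chr1:78097842-78193709, minus strand), which encodes a paired-box factor of melanoblasts and muscle precursors, had the strongest TFAP2A region of the 10 genes. This region, chr1:78054317-78055477, lay between genes, 138.65 kb downstream of the nearest annotated Pax3 start and 43.1 kb beyond the 3′ end of the gene. Its fold enrichment over background was 49.1 in replicate 1 and 47.9 in replicate 2 (mean 48.5 ± 0.841, SD, n = 2). Only 5 of the 16099 shared regions on assembled chromosomes had a higher mean, so it ranked 6. Among all peaks of its own replicate it ranked 6 in replicate 1 and 4 in replicate 2 by enrichment, and 17 and 2 by -log10 p. Its summits in the replicates were 3 bp apart. A neighbouring region, chr1:78056235-78057708, had its summit 2.1 kb away and an enrichment of 27.3 and 27.0 in the replicates (27.2 ± 0.262, n = 2), which ranked 110. The pair differed from each other by far more than the replicates of either region did. Neither stretch printed above holds a TFAP2 site, and the strongest region had no GCCNNNGG within 1 kb of its summit in either direction. Such a lack was found in 3.42% of all shared regions and in 2 of the 60 regions described here. The summits of the neighbouring region were 269 bp apart between replicates, so the stretch printed for it does not cover that of replicate 2. The site nearest to its replicate 1 summit was centred 58 bp from that summit. The nearest protein-coding start to both regions was that of Pax3.

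In all, 12 shared regions lay in the Pax3 window, from 13 peaks in replicate 1 and 22 in replicate 2. Of these, 6 lay inside the gene, all in introns, 4 lay downstream and 2 upstream. The intronic region nearest to a start, chr1:78185862-78186799, lay 7.38 kb downstream of that start and was enriched 11.9-fold in replicate 1 and 16.2-fold in replicate 2 (14.0 ± 3.04, n = 2). It held a TFAP2 site close to its summit. Both upstream regions lay in introns of the neighbouring gene Sgpp2, which encodes a sphingosine-1-phosphate phosphatase, and the start of Sgpp2 was the nearer one. The window held 24.2 shared regions per Mb, more than 91.2% of protein-coding genes. None of the regions reached the promoter, taken as 5 kb upstream to 1 kb downstream of an annotated start. The strongest peak of the 10 genes found in replicate 2 alone, chr1:78375421-78375759, was in an intron of Sgpp2, 181.91 kb upstream of Pax3, with an enrichment of 12.1.

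**Figure D1:**
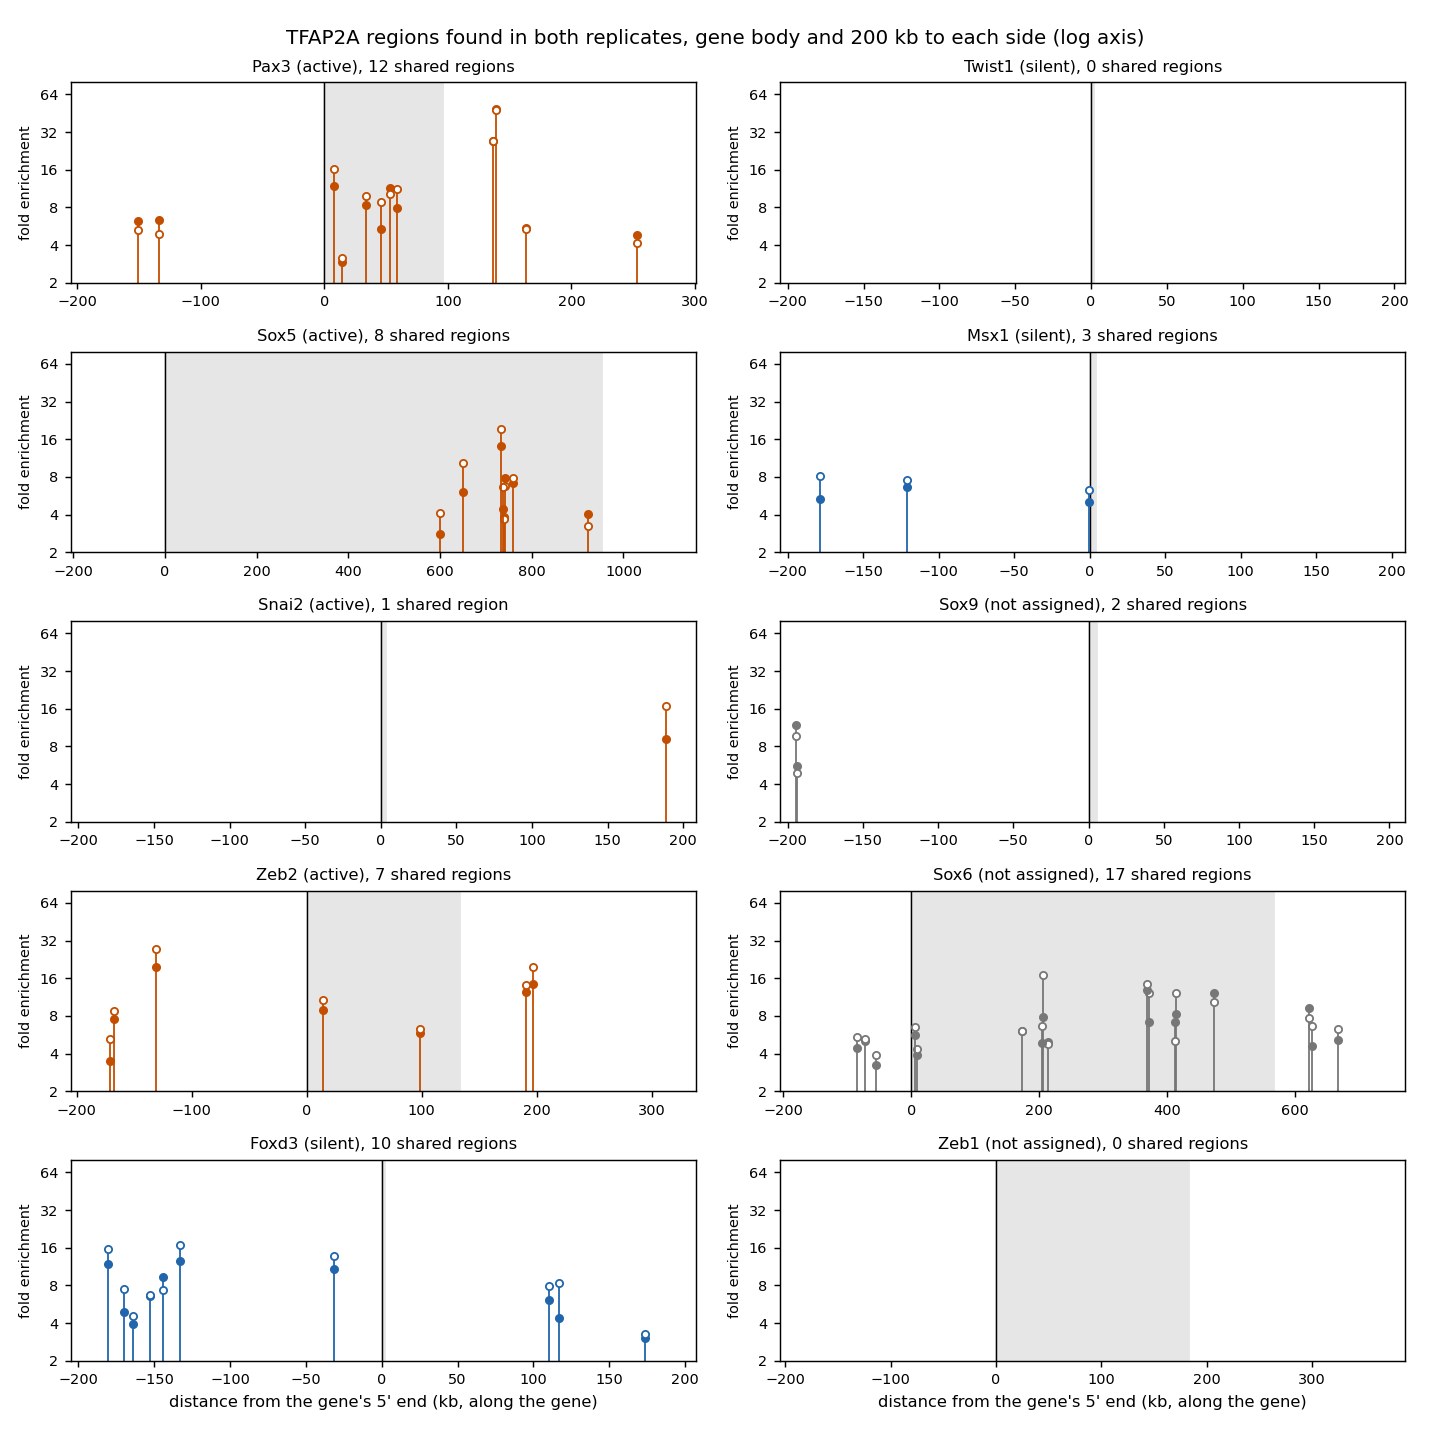
Each panel shows the shared regions of a gene in its body (grey) and 200 kb to either side, with distance from the 5′ end of the gene in kb on the x axis and fold enrichment on a log y axis, filled circles for replicate 1 and open circles for replicate 2 (orange active, blue silent, grey not assigned). The pair of Pax3 regions near 137 and 139 kb stands highest, the Foxd3 regions lie outside a short gene body, and the panels of Twist1 and Zeb1, which had no shared region, are empty.

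Zeb2 (ENSMUSG00000026872.8, chr2:44839154-44972915, minus strand) encodes a zinc finger factor that represses E-cadherin in the crest and acts in melanocyte differentiation. Its window held 7 shared regions, from 9 peaks in each replicate. The strongest, chr2:45103317-45103942, lay between genes 130.72 kb upstream of the start and had an enrichment of 19.7 in replicate 1 and 27.6 in replicate 2 (23.7 ± 5.60, n = 2), rank 209 of all shared regions. A GCCNNNGGC palindrome lay near its summit, as printed above. The next 2 regions lay in introns of the neighbouring gene Gtdc1. Of these, chr2:44776003-44776857 was enriched 14.3-fold and 19.6-fold (16.9 ± 3.74, n = 2), and chr2:44781701-44782592 was enriched 12.4-fold and 14.0-fold (13.2 ± 1.18, n = 2). The latter summit lay 342 bp inside the start of Gtdc1, so the nearest promoter to it was not that of Zeb2. In the gene itself the region nearest to a start lay in an intron, 7.03 kb downstream of that start, and had values of 8.86 and 10.8 (9.84 ± 1.39, n = 2). Of the 7 regions, 6 had a TFAP2 site within 50 bp of their summits.

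Sox5 and Sox6 encode paralogous SOXD factors, which lack a transactivation domain of their own and act with other SOX proteins. Both are long genes, of 954 and 567 kb. Sox5 (ENSMUSG00000041540.9, chr6:143776945-144730497, minus strand) had 8 shared regions, all inside the gene body. The strongest, chr6:143996795-143997250 in an intron, had an enrichment of 14.2 and 19.5 in the replicates (16.9 ± 3.75, n = 2). It was 1 of 5 regions whose summits spanned 26.6 kb. The Sox5 region nearest to any of its 12 annotated starts was 22.7 kb from it and weak, at 2.78 and 4.09 (3.44 ± 0.928, n = 2). The density was 5.91 shared regions per Mb, below the median gene.

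Sox6 (ENSMUSG00000051910.7, chr7:122614858-123182258, minus strand) had 17 shared regions, the highest number of the 10 genes, from 20 and 22 peaks. Of these 11 lay inside the gene, and 12 held a TFAP2 site within 50 bp of the summit. The strongest, chr7:122812520-122813334, lay in an intron 155.21 kb from the nearest start, with values of 12.9 and 14.5 (13.7 ± 1.08, n = 2). The promoters of Sox6 were bound more weakly. The region nearest to an annotated start lay 421 bp upstream of it at 4.98 and 4.77 (4.88 ± 0.144, n = 2), with no TFAP2 site within 50 bp. At another start, regions lay 946 bp downstream, with 3.90 and 4.38 (4.14 ± 0.336, n = 2), and 1374 bp upstream, with 5.67 and 6.55 (6.11 ± 0.621, n = 2). The last of these fell in an exon of 1110006G14Rik and was nearer to its start. The strongest peak of the 10 genes found in replicate 1 alone, chr7:122774177-122774481, was also in a Sox6 intron, with an enrichment of 5.98.

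Snai2 (ENSMUSG00000022676.6, chr16:14705945-14709488, plus strand) encodes the SLUG repressor of epithelial genes, whose loss causes pigment defects. Its window held a single shared region, 188.27 kb downstream of the start, with an enrichment of 9.15 in replicate 1 and 16.9 in replicate 2 (13.0 ± 5.47, n = 2). The start of Efcab1, 12.5 kb away, was the nearest one. Within the gene and up to 100 kb around it neither replicate had a peak.

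Foxd3 (ENSMUSG00000067261.3, chr4:99322990-99325362, plus strand) encodes a forkhead factor that keeps crest cells multipotent and represses the melanocyte fate. Its window held 10 shared regions, or 24.9 per Mb, more than 92.3% of protein-coding genes. This was the highest density of shared regions of the 10 genes, but Pax3 was close at 24.2 per Mb. In replicate 2 the order turned, with 13 peaks in 0.402 Mb for Foxd3 and 22 in 0.496 Mb for Pax3. The gene's own start was the nearest for 6 of the 10 Foxd3 regions and for 10 of the 12 Pax3 regions. All Foxd3 regions lay outside the gene, 7 upstream and 3 downstream. The strongest, chr4:99189491-99190382, lay 133.01 kb upstream with values of 12.5 and 16.8 (14.7 ± 3.05, n = 2), and its palindrome is among the sequences above. The next, chr4:99142156-99142994, lay 180.32 kb upstream with 11.9 and 15.7 (13.8 ± 2.68, n = 2). Its nearest annotated start was that of Gm12689. Both belonged to a group of 6 regions 133 to 180 kb upstream, which spanned 47.3 kb and ranged from 4.24 to 14.7 in mean enrichment. The region nearest to the gene lay 31.4 kb upstream with 10.9 and 13.7 (12.3 ± 1.96, n = 2). In replicate 2 alone a peak with an enrichment of 5.79 lay 4.74 kb downstream of the start. The 3 downstream regions lay in the neighbouring genes Itgb3bp, Gm10967 and Efcab7 and were nearer to the starts of Gm10967 and Efcab7.

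Msx1 (ENSMUSG00000048450.9, chr5:38211724-38215822, minus strand), a homeobox gene of the neural plate border and of the jaw and teeth, had 3 shared regions, found as 3 peaks in each replicate. The region at the promoter, chr5:38215810-38216197, had its summit 155 bp upstream of the start and an enrichment of 5.03 in replicate 1 and 6.34 in replicate 2 (5.68 ± 0.925, n = 2), below the median of all shared regions. It was the most GC-rich of the 60 regions, at 73.3% over the bases printed above. The others lay 120.63 kb upstream at 6.59 and 7.58 (7.09 ± 0.697, n = 2) and 178.48 kb upstream at 5.33 and 8.17 (6.75 ± 2.01, n = 2), and both were nearer to the start of Stx18. The replicate values of the farthest region overlapped those of both others.

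Sox9 (ENSMUSG00000000567.4, chr11:112643538-112649074, plus strand), which encodes an SRY-related factor of cartilage, crest and melanocytes, had 2 shared regions at the far edge of its window. They lay 194.71 and 193.65 kb upstream, 1.07 kb apart. The nearest protein-coding start to both was that of Gm11678, 155.88 and 156.94 kb away. The first had values of 11.9 and 9.65 (10.8 ± 1.63, n = 2), and the second had 5.62 and 4.92 (5.27 ± 0.494, n = 2). At the promoter only replicate 2 had a peak, 1976 bp upstream of the start, with an enrichment of 4.05.

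Twist1 (ENSMUSG00000035799.5, chr12:34642536-34644682, plus strand), a basic helix-loop-helix gene of crest mesenchyme, had no shared region. A single peak of replicate 2, in an intron of Hdac9 118.86 kb downstream of the start, had an enrichment of 5.92. The nearest shared region lay 400 kb from the gene, with values of 9.23 and 9.64. Zeb1 (ENSMUSG00000024238.5), a paralogue of Zeb2 linked to loss of differentiation in melanoma cells, had no peak in either replicate in a window of 0.584 Mb. The nearest shared region to it lay 357 kb away, with values of 9.18 and 13.2 (11.2 ± 2.88, n = 2). A peak below the cutoff of the deposited lists would not be seen at either gene.

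Set against all genes, 8 of the 10 had a shared region in the 200 kb window, beside 82.3% of all protein-coding genes. Within 100 kb this held for 6 of the 10 genes, beside 71.7% of all genes. A region at the promoter was found for 2 of the 10, Sox6 and Msx1, beside 17.0% of all genes. These shares, all from shared regions, were close to the background. Replicate 2 on its own gave 3 genes with a peak at the promoter, with Sox9. The share over all genes is not given for replicate 2 alone, so nothing is read from that count. A region from the top 10% of mean enrichment, which began at 12.8, lay in the windows of 6 genes (Pax3, Zeb2, Foxd3, Sox5, Sox6 and Snai2), beside 24.4% of all genes. The Pax3 region of that strength was known when the genes were chosen, so nothing is read from this count. There were 11 such regions, 18.3% of the 60. The windows of Sox5 and Sox6 were much longer than those of the shorter genes and had more room for a region.

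**Figure D2:**
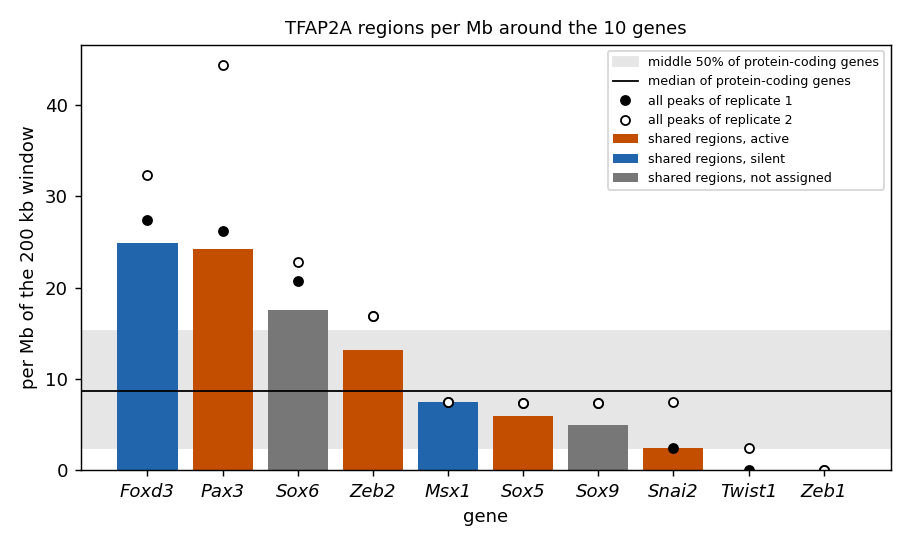
Bars give shared regions per Mb of each gene's window, circles give all peaks per Mb of replicate 1 (filled) and replicate 2 (open), and the line and band give the median and the middle 50% of protein-coding genes. Foxd3, Pax3 and Sox6 stand above the band, Zeb2, Msx1, Sox5, Sox9 and Snai2 stand within it, and Twist1 and Zeb1 have no bar.

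The 10 windows covered 5.95 Mb and held 10.1 shared regions per Mb. All replicate 1 peaks gave 11.8 per Mb and all replicate 2 peaks 14.4 per Mb (13.1 ± 1.90, n = 2). The median protein-coding gene had 8.63 shared regions per Mb, with quartiles of 2.46 and 15.3. The 10 genes ranged from 0 to 24.9 per Mb, so 3 of them lay above these quartiles and 2 below.

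The genes grouped as active and those grouped as silent were compared over the 200 kb windows. The 4 active genes held 28 regions in 2.79 Mb, 10.0 per Mb, with a range of 2.48 to 24.2 between genes. The 3 silent genes held 13 regions in 1.21 Mb, 10.8 per Mb, with a range of 0 to 24.9. In replicate 1 all peaks gave 11.8 per Mb for active and 11.6 for silent genes, and in replicate 2 they gave 15.8 and 14.1. The range between genes within each group was far wider than the difference between the groups. Of the 13 regions of the silent group, 10 were those of Foxd3, and Twist1 had none.

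The groups differed in where the regions lay. Of the 28 regions of the active genes, 16 lay inside the gene, and none of the 13 regions of the silent genes did. The bodies of the silent genes summed to only 0.00862 Mb, against 1.19 Mb for the active genes, so there was little room for a region in them. Outside the gene, the first 100 kb to either side held 5 regions of active genes, 6.25 per Mb, and 2 regions of silent genes, 3.33 per Mb. From 100 to 200 kb away there were 7 regions of active genes, 8.75 per Mb, and 11 of silent genes, 18.3 per Mb, most of them those of Foxd3. With windows of 100 kb the order of the groups turned, to 10.6 per Mb for active and 3.29 for silent genes, beside a median of 8.16 over all protein-coding genes. It turned likewise with windows of 50 kb and when a region was counted only where the gene's own start was the nearest. With windows of 500 kb it did not turn, at 7.71 per Mb for active and 8.97 for silent genes. The only region at a promoter in these 2 groups was that of Msx1, a gene grouped as silent.

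The median of mean enrichment was 7.83 over the regions of active genes, from 3.06 to 48.5, and 6.75 over those of silent genes, from 3.14 to 14.7. Of the 28 regions of active genes 8 belonged to the top 10% of all shared regions, 3 of them of Pax3. Of the 13 regions of silent genes 2 did, both of Foxd3. For some of these another gene's start was the nearest. These were the Zeb2 regions in Gtdc1 and the Snai2 region of the active group, and the farther Foxd3 region of the silent group. The strongest Pax3 region was known when the genes were chosen, so nothing is read from the difference. The 3 unassigned genes held 19 regions with a median of 6.09. With so few genes a group, whose activity was not checked here, no test between the groups was made.

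Over the 60 regions the median of mean enrichment was 6.89, with quartiles of 5.53 and 10.8, beside 6.22 over all shared regions, with quartiles of 4.64 and 8.99. The 10 strongest regions were 3 of Pax3 (48.5, 27.2 and 14.0), 3 of Zeb2 (23.7, 16.9 and 13.2), 1 of Sox5 (16.9), 2 of Foxd3 (14.7 and 13.8) and 1 of Sox6 (13.7). Of these 10, none lay at a promoter of the 10 genes. The replicates gave close values. The median was 6.28 in replicate 1 and 7.54 in replicate 2, 42 of 60 regions (70.0%) were higher in replicate 2, and 59 of 60 differed by less than 2-fold. Replicate 2 exceeded replicate 1 by a median ratio of 1.16, beside 1.05 over all shared regions. The exception was an intronic Sox6 region with values of 7.90 and 16.9, the ratio 2.14. Summits lay a median of 23.5 bp apart between replicates, beside 24 bp over all shared regions, and 57 of 60 lay within 100 bp.

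**Figure D3:**
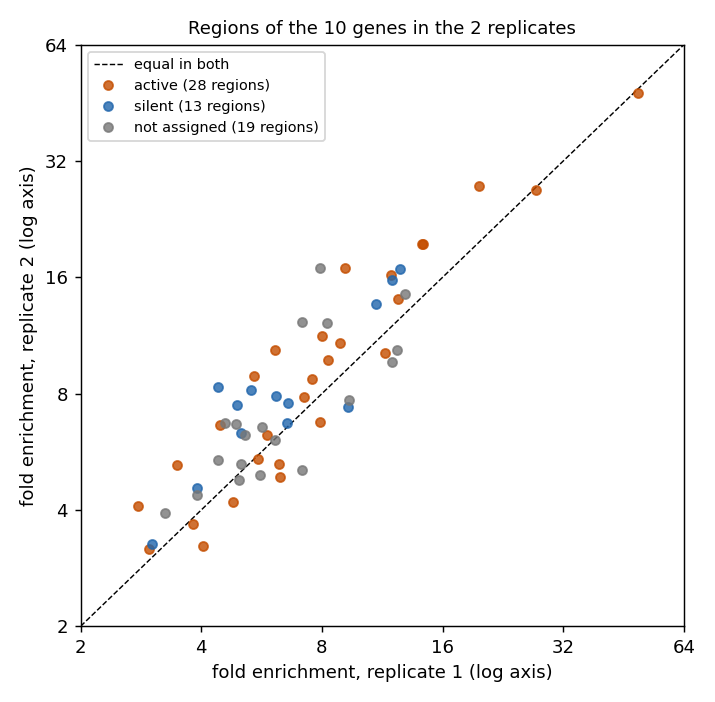
Each point is 1 of the 60 shared regions, with its fold enrichment in replicate 1 on the x axis and in replicate 2 on the y axis, both on log axes, and the dashed line marks equal values. The strongest Pax3 region lies at the upper right on the line, and 42 points lie above the line.

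Of the 70 peaks of replicate 1 in the windows, 60 were shared, 85.7% (exact 95% interval 75.3 to 92.9), beside 87.1% of all replicate 1 peaks. Of the 86 peaks of replicate 2, 60 were shared, 69.8% (58.9 to 79.2), beside 76.0% of all. The intervals cover counting error only. Peaks found in 1 replicate alone were mostly weak. The 10 of replicate 1 had a median enrichment of 4.70, from 2.77 to 5.98, and the 26 of replicate 2 had a median of 4.80, from 2.72 to 12.1. Over all peaks found in 1 replicate alone the medians were lower, 3.99 in replicate 1 and 4.60 in replicate 2. Of the 26, Pax3 had 10.

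The positions of the 60 regions are given without a comparison to all shared regions. There were 27 inside the gene they were counted for, 20 upstream and 13 downstream. Outside the gene the median distance to the gene body was 131 kb, with 4 regions within 50 kb, 8 between 50 and 100 kb and 21 beyond. Introns held 31 of the 60 and exons 2, 1 lay in a UTR, and 26 lay between genes. A gene other than the one they were counted for contained 8 of them. The nearest protein-coding start was that of the gene itself for 42 regions, and all were assigned by position alone. Of 52 neighbouring pairs of summits, 10 lay within 5 kb of each other.

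The TFAP2 site GCCNNNGG, sought on either strand up to 50 bp from each summit, was present in 31 of the 60 regions, 51.7% (exact 95% interval 38.4 to 64.8), beside 57.1% of all shared regions. In flanking windows of equal length, centred 400 bp from the summits, it was present in 12.5% for these regions and in 15.3% for all. The share at the summits was above that of the flanks, and the share over all regions lay within its interval. Of the 31, 26 held 1 site, 4 held 2 and the Msx1 promoter held 3. The nearest site lay a median of 14 bp from the summit, and within 20 bp in 20 regions. The palindrome GCCNNNGGC was present in 11 regions, 18.3%, beside 19.1% of all. Within 100 bp of the summit GCCNNNGG was present in 70.0% of the 60 and in 70.6% of all. A form with a longer gap, GCCNNNNGG, was added after seeing the data. It was present within 50 bp in 23 regions, 38.3% (26.1 to 51.8), beside 52.5% of all, which lay above the interval. Either form was present in 65.0% of the 60 and in 72.7% of all.

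By their medians, the regions with a site were not the stronger ones among these genes. Regions with a site had a median enrichment of 6.11 and those without had 7.33, whereas over all shared regions the medians were 6.35 and 6.10. Of the 11 top regions 6 held a site, beside 62.2% of all regions of that strength. By gene the counts were small, and they hold for the limit of 50 bp only. Sox6 had a site in 12 of 17 regions and Zeb2 in 6 of 7. Pax3 had a site in 4 of 12, Sox5 in 3 of 8, Foxd3 in 5 of 10 and Msx1 in 1 of 3. Sox9 and Snai2 had none. Of the 29 regions without a site at this limit, 11 had one within 100 bp, among them regions of Pax3 and Sox5. The share within 50 bp was 46.4% for the active and 46.2% for the silent genes. A match is a description of the letters, and a missing match says only that these letters are not in the window.

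**Figure D4:**
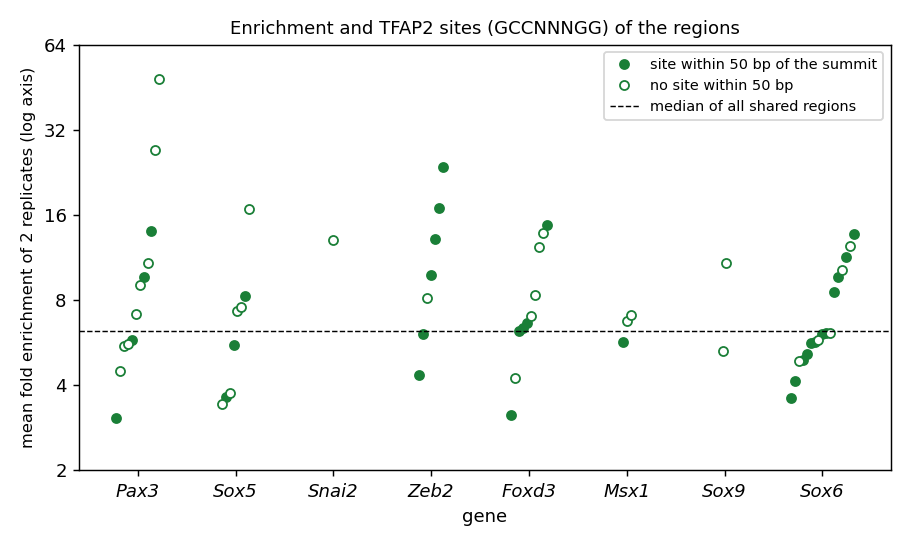
Each point is a shared region, placed by gene on the x axis and by mean fold enrichment of the 2 replicates on a log y axis, filled where GCCNNNGG lies within 50 bp of the summit and open where it does not. The strongest regions of Pax3 and Sox5 are open and the 3 strongest of Zeb2 are filled, and the dashed line marks the median of all shared regions, 6.22.

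Letters of sites for other factors were rare at the summits. The TEAD site GGAATG was present in 10 regions, 16.7% (8.29 to 28.5), beside 10.5% of all shared regions, and 10.5% lay within the interval. The SOX sites ACAAAGG or ACAATGG were present in 4 regions (6.67%), beside 5.21% of all. The MITF M-box TCATGTG was present in 2 (3.33%), 1 of Pax3 and 1 of Zeb2, beside 2.01% of all. The AP-1 site TGACTCA was present in 1 region, of Foxd3 (1.67%), beside 6.36% of all. The E-box CAGGTG, read by SNAIL and ZEB proteins, was present in 1 region, beside 2.83% of all. These too were sought on either strand up to 50 bp from the summits, and at such low counts no difference from all regions could be told.

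For comparison, 28 other transcription factor genes of the neural crest were counted in the same way, also chosen with earlier results of these data known. Of these, 8 had a shared region at the promoter, 28.6%, beside the 17.0% of all genes, and 23 of the 28 had a region in the 200 kb window, beside 82.3%. Their median density was 9.83 per Mb, beside 8.63 over all genes, and 9 of the 28 had a region of the top 10%, beside 24.4%. The strongest promoter regions were those of Mitf, the master regulator of melanocytes, at 8.18 and 13.2 (10.7 ± 3.58, n = 2), and of Sox10, its activator, at 9.30 and 8.24 (8.77 ± 0.751, n = 2). The helix-loop-helix genes Id2 and Id3 had promoter means of 8.44 ± 0.186 and 8.32 ± 0.630 (n = 2). Lower values were found at Myc (5.69 ± 0.524), Lef1 (5.18 ± 1.58), Ets1 (2.86 ± 0.398) and Tfap2a itself (2.76 ± 0.517). The promoter regions of Sox6 and Msx1 lay between these values.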

How the data were processed

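TFAP2A ChIP-seq was done in 2 replicates of melan-a cells. The authors deposited 1 peak list per replicate, with a summit, a fold enrichment (a ratio over background), the -log10 of p and of q, and a score, which was the whole part of 10 times -log10 p and was not used. The submitters' processing notes name BWA, MACS 1.4.2 and mm9, with no settings. The lists carry q values in a layout that later MACS versions write, so the version that made the fold enrichment and q values is uncertain. The lists began at -log10 p of 5.05 and 5.06, so weaker binding cannot be seen, and the read depth is unknown. The replicates may also differ in depth, which moves the number of peaks. The 10 genes, their grouping (by general knowledge of the lineage), the other regulators and the motifs were chosen with earlier results of these data known.

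Peaks that overlapped by at least 1 bp were called shared, the study's overlap criterion, but regions were counted as replicate 1 peaks (16134) and placed by their summits, whereas replicate 2 gives 16305 overlapping peaks. Genes came from GENCODE vM1. Peaks off the assembled chromosomes were not used for genes. Where several regions lay at the promoter of another regulator, the strongest was given. Per gene, the strongest region and that nearest to a start were named, with the 10 strongest regions and the strongest peak of each replicate alone. Any other single region or peak in the text, such as those of replicate 2 alone near Foxd3, Sox9 and Twist1, was chosen after its values were seen. Means ± SD are over 2 replicates. Intervals are exact Clopper-Pearson and cover counting error only. There was no contrast between conditions and no test was made. Python 3.11.15 with pandas 2.3.3, scipy 1.17.1 and pysam 0.24.0 was used, and the counting steps were tested on simulated data. Other windows, overlaps, a -log10 q of at least 5, other site forms and single replicates were tried.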

Additional observations from a re-analysis of the deposited data

How the results depend on the processing

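Of 62 values under other settings, 42 stayed within 1.5 times the reported value (counts and ranks) or within 1 SD of the replicates (other values), and 20 moved. This tally does not measure how stable the results are, since some outcomes were set in advance. The share counted from replicate 2 had to move, because its SD came from the same 2 values. Region counts cannot rise with shorter windows, and matches to GCCNNNGGC are a part of those to GCCNNNGG. Counts that stayed within 1.5 times still ran from 42 to 86 regions and from 6 to 10 genes. The number of regions (60) became 31, 39 and 113 with windows of 50, 100 and 500 kb. Regions per Mb of the silent genes (10.8) became 6.48, 3.29 and 8.97 with these windows and 5.79 when the gene's own start had to be the nearest, where active genes (10.0) gave 11.3, 10.6, 7.71 and 8.25. With either replicate alone, regions per Mb ran from 11.8 to 14.4, and from 11.8 to 15.8 for active and 11.6 to 14.1 for silent genes. The median enrichment of all peaks of a replicate in the windows ran from 5.92 to 6.25, and the share with GCCNNNGG from 51.4% to 54.7%. The share of shared peaks was 69.8% counted from replicate 2. The site share was 70.0% within 100 bp, 18.3% for GCCNNNGGC and 38.3% for GCCNNNNGG, a form chosen after seeing the data, beside 70.6%, 19.1% and 52.5% of all shared regions. By -log10 p the strongest Pax3 peak ranked 17 in replicate 1 and 2 in replicate 2, against 6 and 4 by enrichment, and the median of the 60 regions was 1.13 times that of all, against 1.11. The cause was not tested. A -log10 q of at least 5 or a reciprocal overlap of 50% left 60 and 59 regions. No paired analysis was possible because the input has no table here and the 2 ChIP replicates form 1 group. Unknown depth, 2 replicates and assignment by distance limit all values.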
